A study of Sus scrofa and Bos taurus with 31 samples.

Results

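Gene deserts are long parts of a genome that hold no gene. Many of them lie beside genes that direct development or the nervous system, and the DNA inside them can hold enhancers, which are short elements that raise transcription of a gene from a distance by looping to its promoter. Enhancers in use are free of nucleosomes, so they are seen as open chromatin, and the set that is open differs from tissue to tissue.

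Open regions in the gene deserts of the pig were described here. Peaks of 16 ATAC-seq libraries were merged where they shared at least 1 bp, and a merged region was called open in a tissue when both libraries of that tissue had a peak in it. The members were selected on position: they lay on chromosomes 1 to 18, were open in at least 1 tissue, overlapped no annotated gene and were more than 250 kb from every transcription start site (TSS) of a protein-coding gene. This rule chose 27178 of 274084 open autosomal regions, or 9.92%, and of 284109 open regions on all sequences. The peaks that chose the members also give their tissues, folds and widths, so these are a description of what was selected. Most tests are against intergenic regions picked by the same peak rule from 2 to 250 kb of a TSS, called nearer intergenic regions here (74750 regions). The others compare brain with other tissues, motifs between members of different tissues, and members with open regions inside genes.

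ATAC-seq marks open chromatin by letting a transposase cut and tag accessible DNA. The libraries came from 8 tissues (the cerebellum, cerebral cortex and hypothalamus of the brain, and liver, lung, spleen, adipose tissue and skeletal muscle) of 2 pigs, P348 and P350, which were castrated male Yorkshire littermates, sexually mature and 6 months old, with no treatment in any group. Nuclei had been frozen before the assay. A whole tissue mixes cell types, so a region open in more cells and a region more open in each cell cannot be told apart, and with 2 littermates the spread between animals covers neither sex, breed nor age. The lists held 99960 to 217308 peaks per library (median 143096), and the 2 longest belonged to the cerebellum. Read depth was not used here, and the intervals given are 95% Wilson intervals that cover counting error over regions only.

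The sequences below are the central 300 bp of 7 members, all on the plus strand of Sscrofa11.1 and copied from the RefSeq assembly. The members open only in the cerebellum, cerebral cortex, liver, lung and skeletal muscle are those with the highest fold in the weaker animal, and the other 2 carry the motifs that passed a test. Capitals mark matches to the 8 short motifs searched, whose letters are given with the motif results, and a match is a description and not a binding site.
Cerebellum, chr8:25278705-25279004: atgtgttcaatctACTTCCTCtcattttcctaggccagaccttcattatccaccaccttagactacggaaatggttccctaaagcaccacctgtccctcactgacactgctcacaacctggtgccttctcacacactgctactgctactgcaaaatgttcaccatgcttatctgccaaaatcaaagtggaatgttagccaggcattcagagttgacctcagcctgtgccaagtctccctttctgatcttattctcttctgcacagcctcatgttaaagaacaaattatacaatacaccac
Cerebral cortex, chr18:30276972-30277271: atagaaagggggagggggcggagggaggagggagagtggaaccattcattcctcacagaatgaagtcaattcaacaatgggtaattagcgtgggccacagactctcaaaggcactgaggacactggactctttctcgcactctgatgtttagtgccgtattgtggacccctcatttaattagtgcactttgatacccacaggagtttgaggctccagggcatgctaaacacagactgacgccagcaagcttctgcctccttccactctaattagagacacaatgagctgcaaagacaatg
Liver, chr9:82901950-82902249: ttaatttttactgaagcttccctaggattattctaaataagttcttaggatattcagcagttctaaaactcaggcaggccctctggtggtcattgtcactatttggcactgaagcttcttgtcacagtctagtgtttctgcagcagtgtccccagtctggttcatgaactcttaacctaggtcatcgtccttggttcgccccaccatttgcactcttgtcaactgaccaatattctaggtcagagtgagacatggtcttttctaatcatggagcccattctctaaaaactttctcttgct
Lung, chr7:106271974-106272273: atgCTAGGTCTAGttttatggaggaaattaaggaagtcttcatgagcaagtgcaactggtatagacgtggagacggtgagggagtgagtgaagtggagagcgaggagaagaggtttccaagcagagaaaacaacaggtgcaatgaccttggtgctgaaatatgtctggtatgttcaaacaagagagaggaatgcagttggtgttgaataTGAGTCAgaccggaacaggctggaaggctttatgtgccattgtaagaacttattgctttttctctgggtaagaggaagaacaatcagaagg
Skeletal muscle, chr1:78858246-78858545: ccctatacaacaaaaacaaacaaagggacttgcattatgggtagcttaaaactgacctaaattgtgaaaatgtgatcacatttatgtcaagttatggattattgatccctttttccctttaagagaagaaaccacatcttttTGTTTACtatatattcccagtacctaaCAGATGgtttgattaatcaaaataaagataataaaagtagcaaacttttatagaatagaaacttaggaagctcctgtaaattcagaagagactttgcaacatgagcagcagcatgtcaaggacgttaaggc
Cerebral cortex with an AP-1 match, chr5:92169398-92169697: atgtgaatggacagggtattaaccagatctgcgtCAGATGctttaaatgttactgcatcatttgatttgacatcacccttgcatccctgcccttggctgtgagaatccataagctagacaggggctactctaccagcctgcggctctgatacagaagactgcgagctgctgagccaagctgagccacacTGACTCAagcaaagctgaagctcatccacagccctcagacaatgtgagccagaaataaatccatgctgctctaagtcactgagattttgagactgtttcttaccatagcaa
Skeletal muscle with a MEF2 match, chr8:100309619-100309918: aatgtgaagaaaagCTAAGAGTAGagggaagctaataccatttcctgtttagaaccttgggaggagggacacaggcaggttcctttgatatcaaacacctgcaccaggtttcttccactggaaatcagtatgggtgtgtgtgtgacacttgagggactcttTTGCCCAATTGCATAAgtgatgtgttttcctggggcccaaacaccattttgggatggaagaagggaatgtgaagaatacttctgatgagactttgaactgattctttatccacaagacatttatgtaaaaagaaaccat

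The members were above all regions of the cerebellum, the part of the hindbrain that is packed with small granule neurons. In the cerebellum 20092 members were open, or 73.9% (interval 73.4 to 74.4), beside 45.3% of all open autosomal regions. No other tissue had a larger share among the members than among all open regions. The lung followed with 7766 members (28.6%, beside 42.3% of all regions), then the cerebral cortex with 6034 (22.2%, beside 38.7%) and the hypothalamus with 5752 (21.2%, beside 24.1%). The remaining 4 tissues had the fewest. The liver had 3922 members open (14.4%, beside 28.7%), adipose tissue 3549 (13.1%, beside 27.5%) and the spleen 2236 (8.23%, beside 23.9%). Skeletal muscle had the fewest, 1878 members (6.91%), although 30.3% of all open regions were open there.

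**Figure D1:**
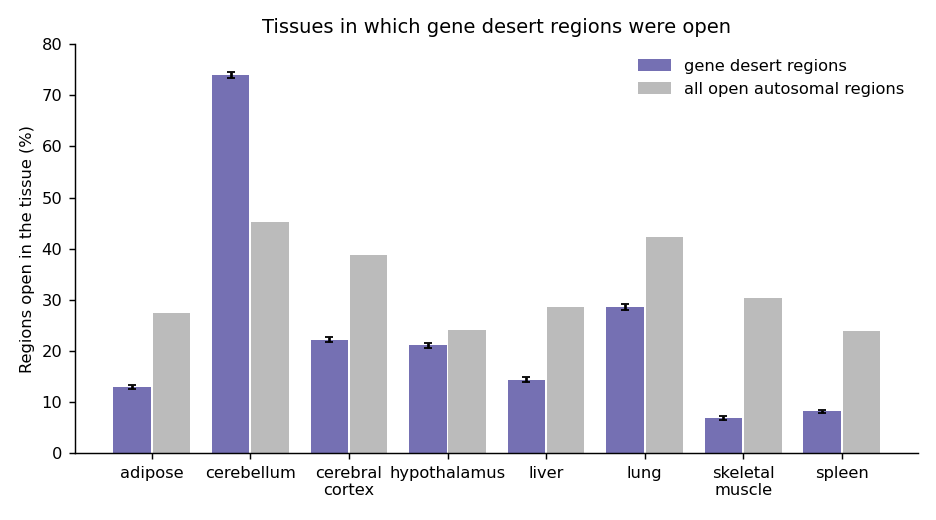
Percent of gene desert regions open in each of the 8 tissues (purple bars, 27178 regions, with 95% Wilson intervals for counting error) beside the percent of all 274084 open autosomal regions (grey bars). The cerebellum, at 73.9% against 45.3%, is the tissue with the taller purple bar.

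Most members belonged to a single tissue. Of the 27178 members, 16817 (61.9%, interval 61.3 to 62.5) were open in 1 tissue, beside 46.9% of all open autosomal regions and 48.0% of nearer intergenic ones. The cerebellum alone accounted for 11860 of them, the cerebral cortex for 1424, the lung for 1263, the liver for 729, skeletal muscle for 547, the hypothalamus for 480, the spleen for 273 and adipose tissue for 241. At the other end, 127 members (0.467%) were open in all 8 tissues, beside 3.07% of nearer intergenic regions. The cerebellum was open in 71.2% of the members open in 2 tissues, close to its 70.5% of those open in 1 and below its 73.9% of all members. It was open in 98.0% of those open in 7, which leave out only 1 tissue. The pair seen most often was cerebellum with lung (1098 members), followed by cerebellum with hypothalamus (863) and cerebellum with cerebral cortex (629). Whatever the number of tissues, 66.1% of lung members were also open in the cerebellum, beside 45.2% of nearer intergenic regions open in the lung. For the hypothalamus the shares were 77.3% and 64.9%, and for the cortex 58.2% and 42.2%.

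Sorted by brain and body, 15778 members (58.1%) were open in at least 1 of the 3 brain tissues and nowhere else, beside 29.7% of nearer intergenic regions. Only 3776 (13.9%) were open outside the brain alone, beside 32.0%, and 7624 (28.1%, beside 38.3%) were open in both. The cerebellum carried this pattern, since members open in the cortex or hypothalamus and in neither the cerebellum nor another organ numbered 2153 (7.92%, beside 9.77% of nearer intergenic regions). Open in all 3 brain tissues and in no other were 273 members (1.00%, beside 0.650% of nearer intergenic regions and 0.714% of all open autosomal regions).

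Each library's own list was also placed on the deserts, without the rule that both animals share a peak. Desert territory took 18.8% of the autosomal peaks of the cerebellum of P348 and 14.4% in P350. The hypothalamus followed with 9.91% and 11.3%, and skeletal muscle was lowest with 2.78% and 2.36%. The 4 highest libraries were the cerebellum and hypothalamus of both pigs, and the cortex (6.79% and 6.91%) lay below the lung (7.68% and 7.79%). The mean over the 3 brain tissues was 11.3% ± 4.92 (SD, n = 3) and over the other 5 tissues 5.49% ± 1.90 (SD, n = 5), a difference of 5.86 percentage points. An exact permutation test over the 56 choices of 3 tissues gave p = 0.0357 two-sided and p = 0.0571 after Benjamini-Hochberg adjustment over 8 comparisons (n = 8 tissues, smallest possible p 0.0179). With the animal as a replicate block, tissues were permuted separately within each pig, so the 2 libraries of a tissue counted as independent units. The adjusted p was then 0.00255 in the exact permutation test. Without the cerebellum the difference was 3.23 points with adjusted p = 0.218 in the exact permutation test over tissues. That design has 7 tissues, and its smallest possible p is 0.0476 before adjustment.

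The share taken by the cerebellum depended on how weak a peak was admitted. Fold enrichment divides the signal of a peak by its local background, and it was averaged over both animals on the log scale. Its median over members was 2.98 in the cerebellum and 4.75 in skeletal muscle, the highest of the 8 tissues. The lung (2.85) was below the cerebellum, and the spleen (2.99) and adipose tissue (3.05) were close to it. Nearer intergenic regions of the cerebellum had a median of 2.89. With peaks limited to q below 0.01, 14564 members were left, of which 59.7% were open in the cerebellum. With q below 0.0001, 4922 members were left, and cerebellum (29.6%), cerebral cortex (31.2%) and skeletal muscle (29.5%) had nearly equal shares. With every list reduced to its 99960 strongest peaks, the cerebellum kept 52.3% of 15011 members. The cerebellum P348 library stood apart with 38930 desert peaks, and when P350 alone decided which regions were open, 63.1% of the members were open in the cerebellum.

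Density along the distance from a TSS shows how the tissues parted. In the cerebellum open intergenic regions rose from 29.7 per Mb of assembled territory at 2 to 10 kb from a TSS to 69.6 per Mb at 250 to 500 kb, and were still at 64.4 per Mb beyond 1000 kb. Skeletal muscle went from 33.2 per Mb at 2 to 10 kb to 9.35 at 250 to 500 kb and 1.88 beyond 1000 kb. The spleen went from 31.8 to 3.85 per Mb over the same bins, the liver from 34.7 to 6.18, adipose tissue from 28.2 to 6.01, the lung from 44.3 to 14.2 and the cortex from 40.2 to 10.0. The hypothalamus was the lowest of the 8 tissues nearest to genes, with 18.9 per Mb, and was second to the cerebellum beyond 1000 kb, with 14.9. Among all open intergenic regions the part open in the cerebellum was 30.1% at 2 to 10 kb and 86.7% beyond 1000 kb.

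**Figure D2:**
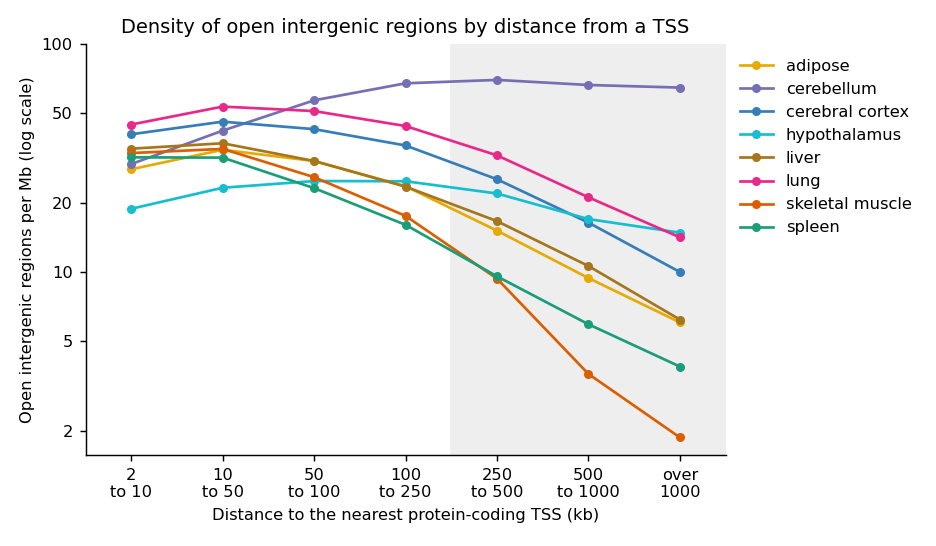
Open intergenic regions per Mb of assembled sequence (vertical axis, log scale) by distance to the nearest protein-coding TSS in kb (horizontal axis), 1 line per tissue, with gene desert distances shaded. The cerebellum stays near 64.4 to 69.6 per Mb across the shaded bins while skeletal muscle ends at 1.88.

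Over the whole of the deserts, 296.942 Mb or 13.1% of the autosomes, the density per tissue was compared with that of nearer intergenic territory (657.072 Mb). It was lower in 7 of 8 tissues, with a mean log2 ratio of -1.02 ± 0.80 (SD, n = 8 tissues, exact sign-flip permutation test, p = 0.0234, adjusted p = 0.0469), and the exception was the cerebellum, where 67.7 regions per Mb in deserts exceeded 50.8 per Mb in nearer territory. That exception was gone at q below 0.0001, where the cerebellum had 4.90 per Mb in deserts and 5.01 nearer and all 8 tissues were lower in deserts. Skeletal muscle had the largest fall, from 27.5 to 6.32 per Mb, and the hypothalamus the smallest, from 23.6 to 19.4. The limit of 250 kb marked no step: the 1027 regions just inside it (250 to 260 kb) were open in the cerebellum in 65.1% and in 1 tissue in 54.7%, and the 1051 just outside (240 to 250 kb) in 62.0% and 55.3%.

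Chromosomes differed in how much desert they hold and in how it was used. Chromosome 11 had the highest share of desert, 27.9% of its assembled length with 1932 members, and chromosome 12 the lowest, 4.86% with 134 members. Cerebellar regions made up 85.0% of the members on chromosome 8 and 84.1% on chromosome 11, but 35.1% on chromosome 12 and 47.5% on chromosome 17.

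No difference in strength between desert and nearer regions passed the test. The median log2 fold differed by -0.05 ± 0.16 on average between members and nearer intergenic regions (SD, n = 8 tissues, exact sign-flip permutation test, p = 0.367, adjusted p = 0.367). The tissues went both ways. In skeletal muscle the median fold was 4.75 in members and 4.12 in nearer regions, whereas it was 3.32 and 4.01 in the liver and 2.99 and 3.60 in the spleen. Members had a median width of 1056 bp and the widest spanned 7546 bp. The median log2 width differed by -0.09 ± 0.11 (SD over 8 tissues, n = 8), with p = 0.0469 and adjusted p = 0.0625 in the exact permutation test. In the replicate block alternative the adjusted p was 0.00114 in the same kind of test, which counted both libraries of a tissue as independent units. In regions open in a given tissue, the share open there only differed by 3.84 ± 8.14 percentage points (SD, n = 8 tissues, exact permutation test, p = 0.195, adjusted p = 0.223). In the cerebellum that share was 59.0% in members and 37.5% in nearer regions, while in adipose tissue it was 6.79% and 12.5%.

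Desert peaks were seen again in the other littermate less often than nearer intergenic peaks. On average 53.9% of a library's desert peaks overlapped a peak of the same tissue in the other pig, beside 62.0% of nearer peaks, a difference of -8.16 ± 7.32 percentage points (SD, n = 8 tissues, exact sign-flip permutation test, p = 0.0156, adjusted p = 0.0417). The difference had this direction in 7 of 8 tissues. It was widest in the spleen, at 40.1% in deserts and 62.1% nearer, and it was turned round in the cerebellum, at 61.3% and 59.1%. This reversal was lost at q below 0.01 (50.0% and 51.6%), at q below 0.0001 (47.0% and 55.96%) and with lists of equal length (49.1% and 51.2%), where all 8 tissues were lower in deserts. Desert peaks of skeletal muscle were few, yet 71.3% of them recurred, the highest value among the tissues.

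The base composition of members was not used to choose them. Members had lower GC content than nearer intergenic regions in 8 of 8 tissues, 48.3% against 51.1% on average, a difference of -2.81 ± 1.19 percentage points (SD, n = 8 tissues, exact permutation test by sign flips, p = 0.00781, adjusted p = 0.0417, and no smaller p can be reached with 8 tissues). It fell by 5.03 points in skeletal muscle and by 1.30 in the spleen. Desert territory as a whole had 37.4% GC and nearer territory 42.4%. Compared with open regions inside genes but more than 250 kb from a TSS, the difference was 0.22 points with adjusted p = 0.223 in the same exact permutation test, so the lower GC was found against nearer intergenic regions and not against these.

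Repeats, the interspersed and simple sequences that the assembly gives in lower case, filled 24.0% of the bases of members and 20.1% of nearer regions, averaged over tissues. The difference of 3.92 ± 2.96 percentage points (SD, n = 8 tissues) had p = 0.0156 and adjusted p = 0.0417 in the exact permutation test, with 7 of 8 tissues higher in deserts and skeletal muscle as the exception (17.1% and 18.1%). Territory as a whole had 38.1% repeat bases in deserts and 38.2% nearer. Members of the cerebellum had the most repeats. Members open only there had 40.3% repeat bases, while those open only in another tissue ranged from 15.6% in the cortex to 26.2% in the hypothalamus. When regions open in 1 tissue were compared alone, the difference was 0.50 points with adjusted p = 0.795 (exact permutation test). Members open only in the cerebellum also lay deepest in the deserts, at a median of 519 kb from a TSS. The hypothalamus (474 kb) and the liver (459 kb) came next, and adipose tissue (378 kb) and skeletal muscle (391 kb) were among the lowest.

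**Figure D3:**
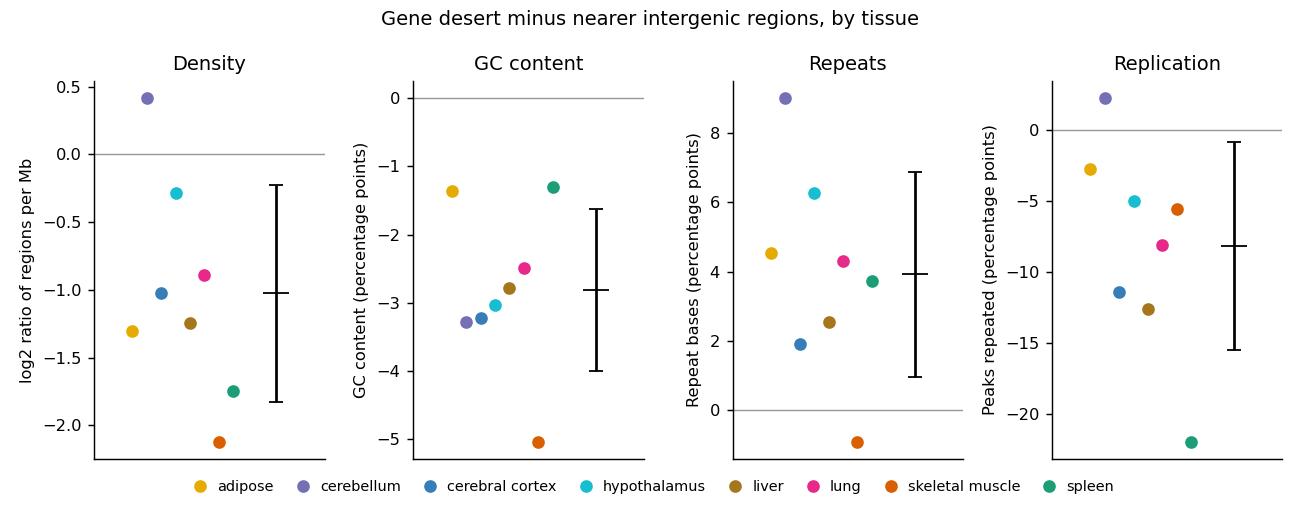
Gene desert minus nearer intergenic regions in each of 8 tissues (coloured points) for density on the log2 scale and for GC content, repeat bases and the share of peaks repeated in the other pig in percentage points. Black bars give the mean and SD over tissues, and the cerebellum stands above 0 in density and replication while the other tissues lie below. The replication value of the cerebellum is a mean of P350, which was higher in deserts, and P348, which was lower. With peaks limited to q below 0.0001 the cerebellum too was lower in deserts in both density and replication.

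The distance between members depends on their density, which was 91.5 per Mb of desert. Of the 27178 members, 23480 (86.4%) had another member within 10 kb, and the median gap to the nearest was 3.81 kb. Nearer intergenic regions, which are denser (114 per Mb), had 89.3% and 2.81 kb. Whether members lay closer to each other than their density alone gives was not tested. Linking members at gaps of up to 10 kb gave 9003 groups, of which 390 held 10 members or more, and the largest held 99. With the link at 5 kb 62.4% of members had a neighbour and at 25 kb 98.3%.

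The tissue of a member was compared with that of its nearest neighbour. The nearest member to a region open only in skeletal muscle was itself open in muscle in 32.2% of 547 cases, while the nearest member to a region open only elsewhere was open in muscle in 5.06%. The same comparison gave 26.1% and 9.95% in adipose tissue, 19.4% and 6.21% in the spleen, and 24.7% and 11.9% in the liver. In the cortex the values were closer, 27.1% and 18.9%. These shares have no test, since neighbours lie on the same stretch of sequence and can come from the same broad stretch of open chromatin.

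Desert territory formed 1219 uninterrupted stretches, each bounded by a gene (coding or not) or by the 250 kb limit, so that several stretches can lie between the same pair of protein-coding genes. Members were in 1138 of them, and 185 stretches (15.2%) held 50% of all members. Among the 402 stretches with at least 250 kb of assembled sequence, the density ran from 13.9 to 213 members per Mb with a median of 86.5, and all of them held a member. The densities of peaks in the 2 pigs followed each other over these stretches, with Pearson's r from 0.757 in the cerebellum to 0.951 in the lung. That is a correlation over stretches of the same libraries and is given with no test.

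The stretch between VRK1 and BCL11B on chromosome 7 (118747503 to 120045736) held 166 members, of which 89 were open in the lung and 87 in the cerebellum. BCL11B encodes a zinc finger transcription factor of T cells and neurons, and 4 of the 166 members were open in skeletal muscle. INTU to FAT4 on chromosome 8 followed with 164 members and MAP3K7 to EPHA7 on chromosome 1 with 162, of which 146 and 142 were open in the cerebellum. FAT4 is a giant cadherin and EPHA7 a receptor that guides axons. STIM2 to PCDH7 (chromosome 8, 22037585 to 23209474) had the most members open only in the cerebellum: 138 of its 156 members were open in that tissue, 122 of them only there, and none in adipose tissue. The peak lists show this too, with 240 and 173 peaks in the cerebellum of P348 and P350 and at most 53 in any other library. PCDH7, PCDH9 and FLRT2, which flank 3 of the 10 stretches with the most members, encode adhesion proteins of neurons, and GRM7, beside a stretch of 136 members, encodes a metabotropic glutamate receptor. These genes are examples, and the flanks of the 10 stretches also include VRK1, INTU, MAP3K7, COBL and STIM2. A count also reflects length. The stretch beside PCDH9 spans 2126 kb at 67.7 members per Mb, that beside FLRT2 1601 kb at 93.1, and that beside PCDH7 1172 kb at 133. The median density was 86.5.

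Density singled out shorter stretches. The densest was that between PKN2 and LMO4 on chromosome 4 (127959983 to 128298414), with 72 members in 338 kb or 213 per Mb. LMO4 encodes a LIM-only transcription cofactor. The library of P350 had 5 peaks there in skeletal muscle and 77 in the cerebellum. Next came PDE10A to QKI on chromosome 1 (4324309 to 4602323) with 198 per Mb, where only 13 of 55 members were open in the cerebellum and 26 each in the lung and in skeletal muscle. QKI is an RNA-binding protein known from muscle and myelin-forming cells. Its peak lists held 41 and 35 peaks in skeletal muscle of P348 and P350, 35 and 44 in the lung, and 16 and 23 in the cerebellum. Both stretches between COBL and VSTM2A on chromosome 9 were among the 10 densest, with 63 members at 196 per Mb and 159 members at 176 per Mb. In the longer one more members were open in the lung (92), the hypothalamus (72), the liver (70) and adipose tissue (67) than in the cerebellum (64).

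The other dense stretches lay beside FAM217B and CDH4 (190 per Mb), GYPC and CNTNAP5 (186), ADAMTS16 and IRX1 (180), LOC110255605 and GATA3 (176), SLC10A2 and EFNB2 (176) and SALL3 and GALR1 (172). IRX1, GATA3 and SALL3 encode transcription factors that pattern organs in the embryo. CDH4 and CNTNAP5 encode neuronal adhesion proteins and EFNB2 a membrane-bound ligand of Eph receptors. Their tissues differed: 41 of 47 members beside CNTNAP5 were open in the cerebellum, 28 of them only there, but 8 of 55 beside CDH4 were, where 30 were open in the lung.

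For each tissue the stretch with the most members open only there was picked, and other tissues could have as many such members in it or more. For the lung it was VRK1 to BCL11B, with 22 members open only there and 25 only in the cerebellum. For adipose tissue it was the longer stretch between COBL and VSTM2A, with 9 members open only there, 16 only in the lung and 10 only in the liver. Members open only in the cortex were most numerous between BRINP1 and CDK5RAP2 on chromosome 1, with 18 of 74, beside 12 open only in the lung. In all, 34 members were open in the cortex there. BRINP1 is a protein of neurons. For the hypothalamus it was the stretch between CELF4 and PIK3C3 on chromosome 6, with 8 of 130 members open only there. That stretch had 56 members open only in the cerebellum and 8 only in the cortex. Members open only in the liver were most numerous between ID2 and RNF144A on chromosome 3. There 29 of 86 members were open in liver, 11 of them only there, beside 9 open only in the cortex. More were open in the lung (32) and the hypothalamus (30). Fewer were open in each other tissue, among them the cortex (28) and the cerebellum (13). ID2 encodes an inhibitor of helix-loop-helix factors.

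The leading muscle desert lay between NFIB and MPDZ on chromosome 1 (208434645 to 208914827). There 33 of 60 members were open in skeletal muscle, 15 of them only there, whereas 6.91% of all members were open in that tissue. The cerebellum had slightly more members open in this stretch, 35, of which 14 were open only there. NFIB encodes a transcription factor of the nuclear factor I family. The leading desert of the spleen lay between KIRREL3 and ETS1 on chromosome 9 (55071522 to 55195157), at 182 kb from ETS1, which encodes a transcription factor of lymphocytes. Of its 17 members 13 were open in the spleen, 7 of them only there, and 0 in the cerebellum, and the peak lists held 14 and 15 peaks in the spleen of P348 and P350 and 2 in each cerebellum library. Since these deserts were picked for the count in a tissue, the counts describe them and have no test.

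**Figure D4:**
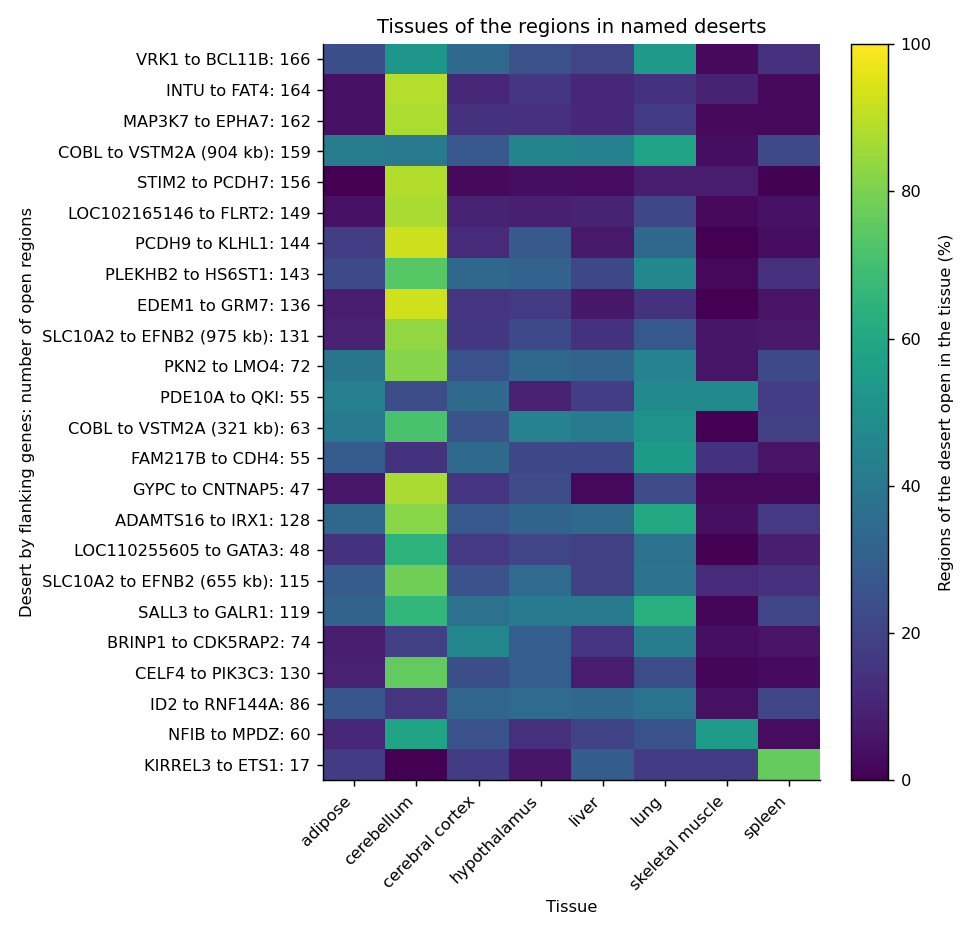
Percent of the open regions of each named desert (rows, labelled by flanking genes and the number of regions) that were open in each of the 8 tissues (columns). Most rows are brightest in the cerebellum, while KIRREL3 to ETS1 is brightest in the spleen, with 13 of 17 regions. NFIB to MPDZ has 33 of 60 in skeletal muscle and 35 in the cerebellum.

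Gene families at the desert edges were counted by symbol. Over all stretches there were 1124 flanking genes, of which 6.14% belonged to the listed developmental transcription factors, 5.87% to neural adhesion and guidance genes and 4.36% to ion channel and transmitter receptor genes. Among all 18708 protein-coding genes compared, the 3 lists made up 1.49% (279 genes), under 1% (131 genes) and 1.23% (231 genes). Along density the 2 leading families went opposite ways. The flanks of the 134 densest of the 402 stretches (over 102 members per Mb) held 20 transcription factors among 220 genes (9.09%) and 14 adhesion genes (6.36%), and those of the 134 sparsest (up to 72.3 per Mb) held 8 transcription factors among 192 genes (4.17%) and 31 adhesion genes (16.1%). The transcription factors beside dense stretches included SOX2, SOX5, SOX6, SOX11, BCL11A, BCL11B, MEIS1, TSHZ1, TSHZ3, RUNX1 and TFAP2A. The adhesion genes beside sparse stretches included the cadherins CDH7, CDH8, CDH9, CDH10 and CDH18 and the contactins CNTN4, CNTN5 and CNTN6. The symbols are matched by their first letters, a gene can flank several stretches, and no test was made.

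Base composition moved with density, and it did so differently for the cerebellum. Over the 402 stretches the density of members open in at least 1 tissue other than the cerebellum rose with the GC content of the stretch (Pearson's r = 0.85, Spearman's rho = 0.85), and that of members open only in the cerebellum fell (r = -0.38, rho = -0.31). These are correlations over stretches that share libraries and differ in base composition, given without a test. The mean GC content was 35.4% ± 1.46 (SD, n = 134) in the 134 sparsest stretches and 39.7% ± 3.87 (SD, n = 134) in the 134 densest. Ordered by members open outside the cerebellum alone, an order added after the data were seen, the 134 densest had 25 transcription factors among 225 flanking genes and 12 adhesion genes (5.33%), and the 134 sparsest had 6 transcription factors among 175 genes (3.43%) and 35 adhesion genes. Ordered by members open only in the cerebellum, both families were in the other place: transcription factors made up 3.11% of 193 flanking genes in the densest stretches and 10.7% of 214 in the sparsest, and adhesion genes 12.95% and 7.48%. The part of GC content in these counts was not tested.

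**Figure D5:**
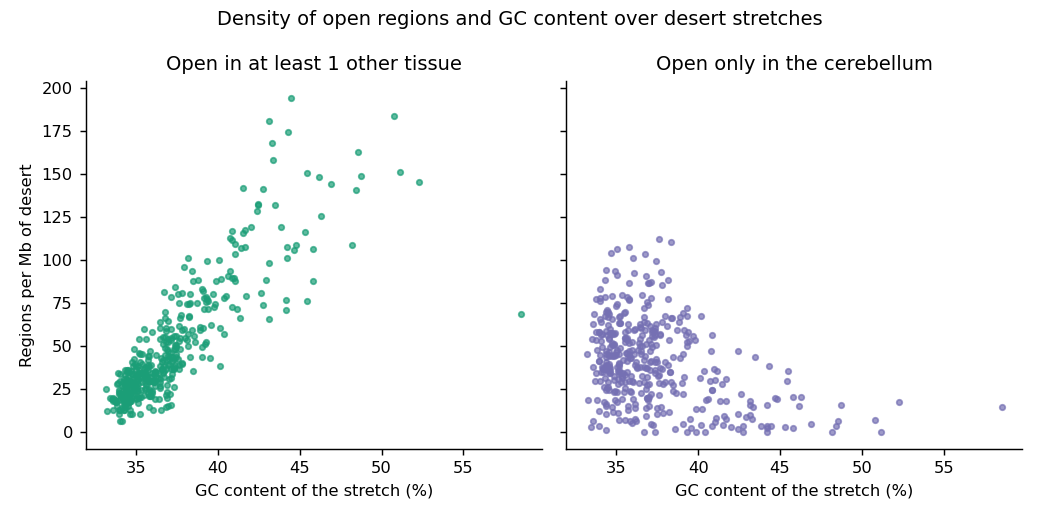
Open regions per Mb (vertical axes) against GC content in percent (horizontal axes) over 402 desert stretches of at least 250 kb, for regions open in at least 1 tissue other than the cerebellum (left, r = 0.85) and for regions open only in the cerebellum (right, r = -0.38). Each point is a stretch.

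The strongest member of each tissue was picked by its fold in the weaker animal. The region of skeletal muscle at chr1:78857995-78858797, 546 kb from the TSS of RFPL4B, had folds of 18.5 in P348 and 18.2 in P350. Apart from these it had a peak in the cerebellum of P348 alone, with a fold of 3.69. The liver region at chr9:82901916-82902284, 513 kb from ETV1, had folds of 14.5 and 11.4, and weak peaks in 1 cortex and 1 hypothalamus library (4.58 and 3.24). The cerebellar region at chr8:25278652-25279057 had folds of 9.28 and 9.96 and no peak in any other library, although it lies 1819 kb from the nearest TSS, that of PCDH7.

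The strongest members of the cortex and hypothalamus had peaks in other brain libraries too. The cortical region at chr18:30276905-30277338, 297 kb from TFEC, had folds of 8.71 and 10.3, and peaks also in the hypothalamus of P350 (4.79) and the cerebellum of P348 (2.82). For the hypothalamus the strongest region was at chr6:123655086-123655374, with folds of 4.83 and 6.23, and 1 library each of cerebellum and cortex had a peak of about the same size, 3.26 and 3.25. The spleen region at chr8:100282218-100284874 reached 5.87 and 5.86 and had weaker peaks in the cerebellum of P348 (3.15), the liver of P350 (3.37) and skeletal muscle of P348 (3.54). The adipose region at chr6:113244605-113244872, 616 kb from CDH2, had folds of 4.01 and 4.11. The lung region at chr7:106271923-106272325 lies in the stretch beside FLRT2 and had no peak outside the lung. Over these 8 regions the larger fold exceeded the smaller by at most 1.29-fold between the animals. Picking by the weaker animal favours regions with like folds in both pigs, so this ratio is no measure of agreement over the members.

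Among members open in every tissue, the one whose lowest fold was highest stood apart. It lay on chromosome 4 (53952978 to 53954311) between RALYL and SNX16, and its folds ranged only from 6.90 to 8.48 over the 16 libraries. A blastn comparison with the mitochondrial genome of the same assembly, made after the data were seen, aligned 1321 of its 1334 bp at 98.3% identity. Such alignments of at least 100 bp were rare, found in 4 of 27178 members and 18 of 74750 nearer intergenic regions. Among the 127 members open everywhere it was the only one, and the other 126 had a median fold of 4.32 and a median ratio of 2.56 between the highest and the lowest library, beside 1.23 here. The part of mitochondrial reads in its folds was not tested.

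Other extremes were the widest and the farthest member. The widest, 7546 bp on chromosome 11 (35870650 to 35878195) and 1480 kb from PCDH20, was open in all 8 tissues with folds of 2.33 to 4.29 and had 64.1% GC. The farthest, at chr6:123628452-123629721, lay 2247 kb from the TSS of CELF4 and was open only in the cerebellum, with folds of 2.84 and 3.39. It sits in the same stretch as the strongest hypothalamic member.

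A set of 8 motifs, 1 per tissue, was searched on both strands in the central 300 bp of members open in 1 tissue. They were TTGCNNAA (CEBP) for adipose tissue, CAGATG (E-box of NEUROD and ATOH1) for the cerebellum, TGANTCA (AP-1) for the cortex, GTTGCCNNGGNAAC (RFX) for the hypothalamus, CAAAGTCCA (HNF4) for the liver, TGTTTAC (FOX) for the lung, CTANNNNTAG (MEF2) for skeletal muscle and GAGGAAGT (PU.1) for the spleen. No word holds another. AP-1, the pair of FOS and JUN factors that answers neuronal activity, was found in 267 of 1424 members open only in the cortex (18.8%, interval 16.8 to 20.9), in 11.4% of members open only elsewhere and in 10.7% of all open regions. The mean difference over chromosomes was 7.94 ± 5.52 percentage points (SD, n = 18 chromosomes, exact sign-flip permutation test, p = 2.29e-05, adjusted p = 1.83e-04 over 8 pairs). Members open only in skeletal muscle came next, with AP-1 in 16.6%. The region printed above with this word lies at chr5:92169333-92169762, 285 kb from CCER1, with folds of 7.57 and 9.67 in the cortex. It had weaker peaks in adipose tissue (3.22) and cerebellum (4.15) of P348 and in the hypothalamus of P350 (3.33).

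The word searched for MEF2, a factor of muscle and neurons, was in 53 of 547 members open only in skeletal muscle (9.69%, interval 7.48 to 12.5). It was in 5.05% of members open only elsewhere and in 3.97% of all open regions. This word takes any base at N, so a match need not be a site that MEF2 binds, and binding was not tested. The mean difference was 5.30 ± 6.63 points (SD, n = 18 chromosomes), with p = 0.00227 and adjusted p = 0.00909 in the exact permutation test. In the other tissues it ran from 2.90% of members open only in adipose tissue to 5.42% in the hypothalamus. The muscle member printed above with this word, at chr8:100309074-100310463 between ANKRD50 and SPRY1, had folds of 9.73 and 12.7 and no peak elsewhere. Both motifs were also frequent in regions of the same tissue outside deserts: the shares were 15.1% for AP-1 and 6.93% for MEF2 among regions open only in the cortex or in muscle that are not members, and against nearer intergenic regions of the same tissue the differences were 1.65 points (adjusted p = 0.41) and 2.62 points (adjusted p = 0.312, exact permutation tests).

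The other 6 pairs did not pass. FOX in the lung was found in 6.02% of members open only there and 4.58% of those open only elsewhere, with adjusted p = 0.0669, PU.1 in the spleen in 3.66% and 1.40% (adjusted p = 0.272) and HNF4 in the liver in 0.960% and 0.410% (adjusted p = 0.219, exact permutation tests). CEBP in adipose tissue was found in 29 of 241 members and in 14.9% elsewhere (adjusted p = 0.635) and the E-box in the cerebellum at 24.4% and 24.7%, with a mean difference over chromosomes of the other sign, 2.21 points (adjusted p = 0.452, exact permutation tests). RFX was found in 0 of 480 hypothalamic members, which allows a share of up to 0.794% by the Wilson interval, beside 0.0367% elsewhere, so no difference could be seen at this number. The groups compared also differed in GC content, from 43.0% in members open only in skeletal muscle to 51.4% in adipose tissue, and its part in the motif shares was not tested.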

How the data were processed

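ATAC-seq libraries from 8 tissues of 2 littermate pigs were analysed as 16 peak lists, 1 per library, with tissues and animals taken from the labels. According to the study's methods the authors called broad peaks with MACS2 at a q-value limit of 0.05 on Sscrofa11.1. The submitters' processing notes also name Trim Galore 0.4.5, BWA 0.7.17, SAMtools 1.10 and Picard 2.18.17; a shift of read ends for ATAC-seq is not given in the sources used here. The deposited score is a whole number near 10 times the −log10 q-value, the deposited fold gives signal over the local background as a ratio, averaged along the broad peak, and the authors' −log10 values of p and q are averages too. Scores and p-values entered no test, and q-values only filtered peaks. A q-value depends on depth, which the lists do not give, so list lengths were not adjusted for depth except by the alternative with lists of equal length.

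Peaks sharing 1 bp were merged, and distances, genes, GC content and lower-case repeat bases came from NCBI's annotation release 106 of the same assembly (18725 protein-coding genes on chromosomes 1 to 18). A region is nearer intergenic from 2 to 250 kb of a protein-coding TSS. The members, gene lists, motifs and tests were chosen with earlier results of these data known. Differences between members and nearer intergenic regions were taken within each tissue and tested by exact two-sided sign-flip permutation over 8 tissues (smallest p 0.00781), motif shares by the same test over chromosomes with at least 5 regions on each side, with Benjamini-Hochberg adjustment within each family of 8 and a threshold of 0.05. Tissues share animals and regions, so these differences are not independent. The labels give the same animal names in every tissue, and same-named samples come from 1 pig, so the names pair the samples; a fit with the animal as a replicate block took both libraries of each tissue as units.

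The regions named were, per tissue, the member open only there with the highest fold in the weaker animal, the member open everywhere whose lowest fold was highest, the widest and the farthest. The deserts named were the 10 with the most members, the 10 densest of at least 250 kb with at least 10 members, and per tissue the 1 with the most members open only there. The regions with an AP-1 or MEF2 match, the comparison with the mitochondrial genome (blastn 2.17.0, at least 100 bp) and the orders of stretches by tissue were added after the data were seen. Scripts used Python 3.11.15, numpy 2.4.6 and scipy 1.17.1 and were tested on simulated data. Cattle libraries were not used here. Alternatives were stricter q-value limits, lists of equal length, other distances and TSS sets, each animal or the cerebellum left out, other merging, other units and comparison groups.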

Additional observations from a re-analysis of the deposited data

How the results depend on the processing

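The number of members moved most. It was 14564 at q below 0.01, 4922 at q below 0.0001, 15011 with lists of equal length, 50051 beyond 100 kb, 11871 beyond 500 kb, 15192 with every annotated transcript start, 15323 without the cerebellum, 61340 with a peak in either animal and 45188 to 51753 with an animal left out. Members with a neighbour were 62.4% at 5 kb and 98.3% at 25 kb.

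The mean density difference kept its direction under all 16 alternatives. It did not pass beyond 100 kb (log2 ratio -0.71), and with an animal left out it was -0.83 to -0.81 with adjusted p = 0.0547 in the exact permutation test, where replication drops out of the 8 comparisons. The brain difference passed at q below 0.01 (6.05 points), at q below 0.0001 (3.66), beyond 500 kb (3.08) and with the replicate block (5.86). The share open in 1 tissue passed at q below 0.01 (10.0 points), at q below 0.0001 (16.6), with equal lists (8.63) and with chromosomes as units (3.66).

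The log2 fold difference changed sign at q below 0.0001 (0.042), among regions open in 1 tissue (0.044) and against regions inside genes (9.67e-04), and passed with chromosomes as units (-0.051). Width changed sign beyond 100 kb (0.0029) and among regions open in 1 tissue (0.0064). It passed at -0.17 (q below 0.01), -0.29 (q below 0.0001), -0.14 (equal lists), -0.19 (beyond 500 kb), -0.15 (no cerebellum), -0.10 (peaks within 500 bp merged), -0.11 (either animal), -0.14 (against 50 to 250 kb), -0.034 (inside genes), -0.11 (replicate block) and -0.092 (chromosomes).

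Lower GC did not pass after adjustment beyond 100 kb (-2.49 points), among regions open in 1 tissue (-2.93) or with an animal left out (-3.06 to -2.87). In the first 2 and without P348, p was 0.00781 in the exact permutation test, the smallest that 8 tissues allow. There all 8 tissues were lower, and the call turned on the other p-values of the family. The GC difference turned to 0.22 against regions inside genes. Higher repeat content kept its direction but did not pass at q below 0.01 (3.67 points), at q below 0.0001 (1.65), with equal lists (4.10), beyond 100 kb (1.89), among regions open in 1 tissue (0.50), without the cerebellum (2.74) or with an animal left out (3.77 to 4.93). Replication did not pass beyond 100 kb (-8.28 points) and has no value with an animal left out. The replicate block changed no other call, and leaving out regions like mitochondrial DNA changed none.

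AP-1 in the cortex did not pass with the whole region searched (2.94 points), at q below 0.0001 (4.55) or against nearer regions of the tissue (1.65), nor MEF2 in muscle with 200 bp searched (2.83), at q below 0.0001 (2.51) or against nearer regions (2.62). FOX in the lung passed at q below 0.0001 (7.06), and the E-box (9.67) and RFX (-0.064) with the whole region searched, which is wider in some tissues than in others. CEBP turned to 0.39 with the whole region and to 1.95 against nearer regions, the E-box to -0.79, HNF4 to -0.69 and PU.1 to -2.24. CEBP could not be fitted at q below 0.0001, where too few chromosomes held members. The causes were not tested, and 2 littermates with no read depth limit all values to these libraries.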
